A study of Mus musculus with 9 samples.

Results

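The genes of the mitochondrial carrier family (Slc25a) were followed through 9 peak lists from mouse fat. Members were the protein-coding genes of GENCODE M21 whose symbol starts with Slc25a, 47 of 21938 genes, on 19 chromosomes. The rule used no measured value, but it was chosen with earlier results of these data known. The material of 8 lists was mature adipocytes floated from collagenase-digested inguinal fat of male C57 mice aged 8 to 10 weeks. Wild type adipocytes after 7 days of cold stress (CS) and at room temperature (RT) were profiled for Ets1, an ETS transcription factor that binds DNA with a GGAA core. It was also profiled in beige adipocytes cultured for 6 days from the stromal vascular fraction (SVF) of wild type males aged 3 to 4 weeks. H3K27ac, an acetyl mark of active promoters and enhancers, was profiled in EA+/+ (Ets1 ki/ki with Adipoq-cre) against EC+/+ (the same knock-in alleles without Cre). It was profiled again in EAKO (Ets1 f/f with Adipoq-cre) against Flox (Ets1 f/f without Cre), and ATAC was run on EAKO and Flox. The Adipoq promoter limits both alleles to fat cells, so other cells in the floating fraction keep their own Ets1. The titles call the antibody assays ChIP, while the protocol describes CUT&Tag, in which an antibody tethers a transposase to its target. ATAC uses a free transposase that tags open chromatin.

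Each group had 1 library. No difference between groups could therefore be tested, the spread between animals is unknown, and counts are described beside the same counts over all genes.

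Carriers of this family sit mostly in the inner mitochondrial membrane and exchange one metabolite for another across it. They pass ADP and ATP, phosphate, citrate, malate, amino acids, acylcarnitines and cofactors between cytosol and matrix. Fat cells use them to export citrate for fatty acid synthesis and to import acylcarnitines for oxidation. Ucp1, which lets brown and beige fat cells turn the proton gradient into heat, belongs to the same protein family under another symbol.

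The Ets1 lists held 30553 peaks in beige cells, 14858 in CS and 4056 in RT, and the other lists 33713 to 88977. Of 10 adipocyte markers, 5 to 8 had a promoter peak in every list but that of Ets1 RT, which had 0. Adipoq, whose promoter drives the Cre, and Cidec had no promoter peak in any list. Of 5 endothelial markers, 2 to 4 had one in the CS, H3K27ac and ATAC lists. Macrophage markers had 2 of 5 in each H3K27ac and ATAC list, Cd14 with Adgre1 in EC+/+ and with Csf1r in the others. In the beige Ets1 list they had 2 of 5 (Csf1r and Cd68), and in CS and RT 0. Progenitor markers had 0 to 1 of 5 in the Ets1 lists and 2 to 5 in the others, and lymphocyte markers 0 to 2 of 5. Promoter peaks stood at 46.4% of all genes in beige cells, 32.7% in CS and 4.06% in RT. For H3K27ac the share of all genes was 50.4 to 63.9%, and for ATAC 66.0 to 67.7%. Several marker counts lay near or below these shares, so the counts do not establish which cells were present. In bulk lists, fewer cells of a type and less signal per cell cannot be told apart. The Ets1 promoter, which lies outside the floxed exons and so does not check the knock-out, had a peak in each H3K27ac and ATAC library.

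A member had a promoter peak when a peak came within 1 kb of any of its transcription start sites (TSS). In the comparisons below, a peak of a gene means a promoter peak, until gene bodies plus 20 kb are counted. A peak's strength is its −log10 q, the negative logarithm of the false discovery rate assigned to it by the peak caller. Its place is the percent of peaks in the same list with a lower value. A strength has meaning only within its list, so peaks of different lists were compared by place, and strengths of 2 lists that stand side by side show no direction.

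The DNA under the Ets1 summits was read from GRCm38 (mm10) over 101 bp centred on each summit. The windows below are the members whose window held CCGGAAG, a sequence that ETS factors bind (searched on both strands), and 2 without it that carry the results further on. Each is written 5′ to 3′ on the gene's strand with CCGGAAG in capitals. The windows are chr9:108662038-108662138 (plus strand, CS) for Slc25a20, chr8:46211129-46211229 (minus strand, CS) for Slc25a4, chr10:91124056-91124156 (minus strand, beige) for Slc25a3 and chrX:36796272-36796372 (plus strand, beige) for Slc25a5. Those of Slc25a17 and Slc25a42 are chr15:81360819-81360919 and chr8:70212461-70212561 (both minus strand, beige). Without the sequence are Slc25a25 at chr2:32452201-32452301 (minus strand, CS) and Slc25a12 at chr2:71282234-71282334 (minus strand, CS).
Slc25a20: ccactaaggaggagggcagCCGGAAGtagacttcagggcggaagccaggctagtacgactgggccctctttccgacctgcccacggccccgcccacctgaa
Slc25a4: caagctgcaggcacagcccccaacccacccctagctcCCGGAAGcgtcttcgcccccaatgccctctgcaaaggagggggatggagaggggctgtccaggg
Slc25a3: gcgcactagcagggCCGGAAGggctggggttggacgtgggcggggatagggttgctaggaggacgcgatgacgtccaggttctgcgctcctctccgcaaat
Slc25a5: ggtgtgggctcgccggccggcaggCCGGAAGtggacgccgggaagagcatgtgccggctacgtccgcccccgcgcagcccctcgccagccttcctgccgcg
Slc25a17: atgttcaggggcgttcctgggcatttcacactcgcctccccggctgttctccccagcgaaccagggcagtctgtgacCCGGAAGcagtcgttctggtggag
Slc25a42: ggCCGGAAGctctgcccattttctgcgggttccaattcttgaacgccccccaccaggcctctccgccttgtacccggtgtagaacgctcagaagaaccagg
Slc25a25: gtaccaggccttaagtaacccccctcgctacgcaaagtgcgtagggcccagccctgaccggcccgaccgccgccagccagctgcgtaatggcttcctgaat
Slc25a12: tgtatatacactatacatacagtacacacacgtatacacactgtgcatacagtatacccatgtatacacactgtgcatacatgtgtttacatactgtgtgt

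CCGGAAG stood in the window of 5 of 44 member promoter peaks in beige cells (11.4%, Wilson 95% interval 4.95 to 24.0%), against 7.71% of all 11068 promoter peaks of that list. In CS it stood in 2 of 26 (7.69%, 2.14 to 24.1%), against 5.32% of all promoter peaks, and in RT in 0 of 6, against 2.33%. Most member peaks therefore lacked these letters at the summit, and each interval held the share of its whole list. The CS peak of Slc25a20 itself began at position 108662068, past the motif at 108662057 to 108662063, which the beige peak covered. The motif of Slc25a42, at 70212553 to 70212559 of chromosome 8, lay inside its RT, CS and beige peaks, 95, 204 and 45 bp from the summits. All 6 motifs lay inside ATAC peaks of both EAKO and Flox.

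Over 1001 bp centred on the 5′ end, 15 of the 47 members held CCGGAAG on either strand (31.9%), against 19.2% of all genes. The family's promoters were also rich in CpG. The observed over expected CpG ratio was above 0.6 in 33 of 47 members (70.2%), against 45.9% of all genes, and its median was 0.71 in members against 0.55 in all genes. Slc25a18 (0.21), Slc25a34 (0.22) and Slc25a41 (0.24) had the lowest ratios, and these 3 genes also had promoter peaks in few lists (1, 3 and 1). Slc25a54 (0.40) and Slc25a2 (0.46) had them in 0 lists. Other members went the other way. Slc25a45 (0.30), Slc25a22 (0.46) and Slc25a17 (0.47) had promoter peaks in 5, 7 and 8 lists, and Slc25a37 (0.72) and Slc25a31 (0.75) in 0 and 1.

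Carrier promoters were occupied more often than the average gene in every list. Ets1 peaks stood at 36 of 47 members in beige cells (76.6%, Wilson 95% interval 62.8 to 86.4%), against 46.4% of all genes. They stood at 23 in CS (48.9%, 35.3 to 62.8%, all genes 32.7%) and at 6 in RT (12.8%, 5.98 to 25.2%, all genes 4.06%). H3K27ac peaks stood at 32 members in EA+/+ (68.1%, all genes 50.4%) and 31 in EC+/+ (66.0%, all genes 52.0%). They stood at 38 in EAKO (80.9%, all genes 60.5%) and 40 in Flox (85.1%, all genes 63.9%). ATAC peaks stood at 41 members in EAKO (87.2%, all genes 66.0%) and 42 in Flox (89.4%, all genes 67.7%). The interval of the members lay above the share of all genes in the Ets1, ATAC and EA+/+ lists and in the EAKO and Flox H3K27ac lists, and held it in EC+/+. The intervals cover counting error only, and genes with CpG-rich promoters were not set apart in the share of all genes.

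**Figure D1:**
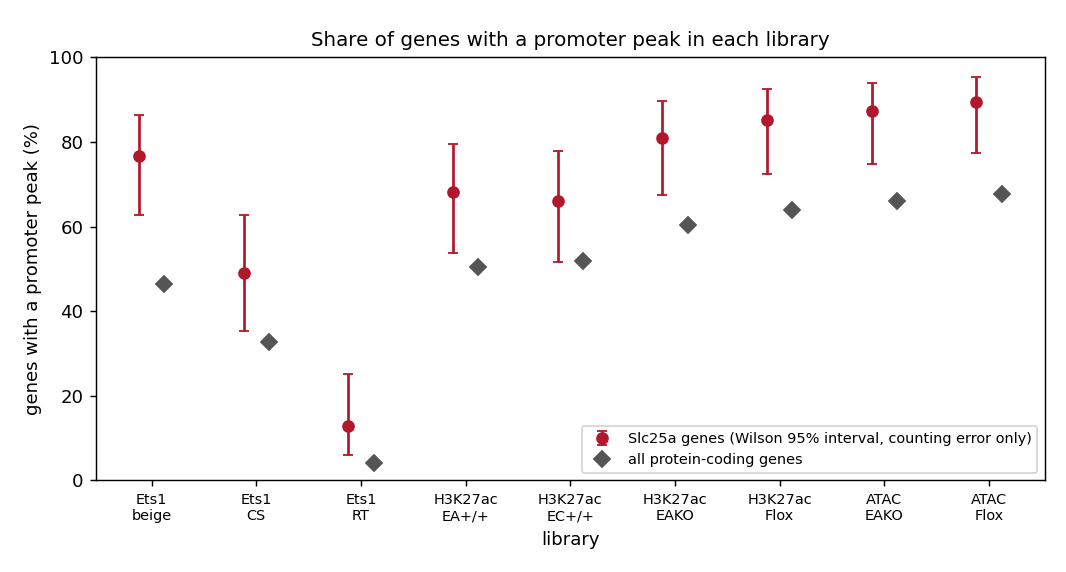
Share of genes with a promoter peak (y axis, percent) in each library (x axis). Red points are the 47 Slc25a genes with Wilson 95% intervals, grey diamonds all 21938 protein-coding genes; the red point lies above the diamond in all 9 libraries.

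The strength of member peaks was also set against that of all genes. The median place of the strongest promoter peak was 74.8 in beige cells, 70.2 in CS and 63.7 in RT for members, against 75.8, 71.2 and 57.0 for all genes with a peak. In H3K27ac it was 66.9 in EA+/+ and 82.5 in EC+/+ for members, against 78.4 and 78.7 for all genes. In EAKO and Flox it was 87.5 and 88.7 for members, against 87.0 and 88.9, and in ATAC of EAKO and Flox 90.8 and 92.2, against 85.4 and 87.9. The EA+/+ list was the one in which members stood furthest below all genes.

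Of the 47 members, 3 had a promoter peak in all 9 lists (all genes 3.08%). They were Slc25a11, the oxoglutarate carrier of the malate-aspartate shuttle, Slc25a12, an aspartate-glutamate carrier of the same shuttle, and Slc25a28, a mitoferrin that imports iron. These peaks were not all at the same start of the gene. The strongest RT peak of Slc25a11 and Slc25a12, and the strongest CS peak of Slc25a12, lay more than 1 kb from the 5′ end. A further 12 had one in all lists but Ets1 RT (all genes 21.0%). A peak in all 4 H3K27ac and both ATAC lists was held by 26 members (all genes 40.0%). There were 3 members with none in any list (all genes 26.4%): Slc25a2, an ornithine carrier, Slc25a37, the mitoferrin of red cell precursors, and Slc25a54.

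**Figure D2:**
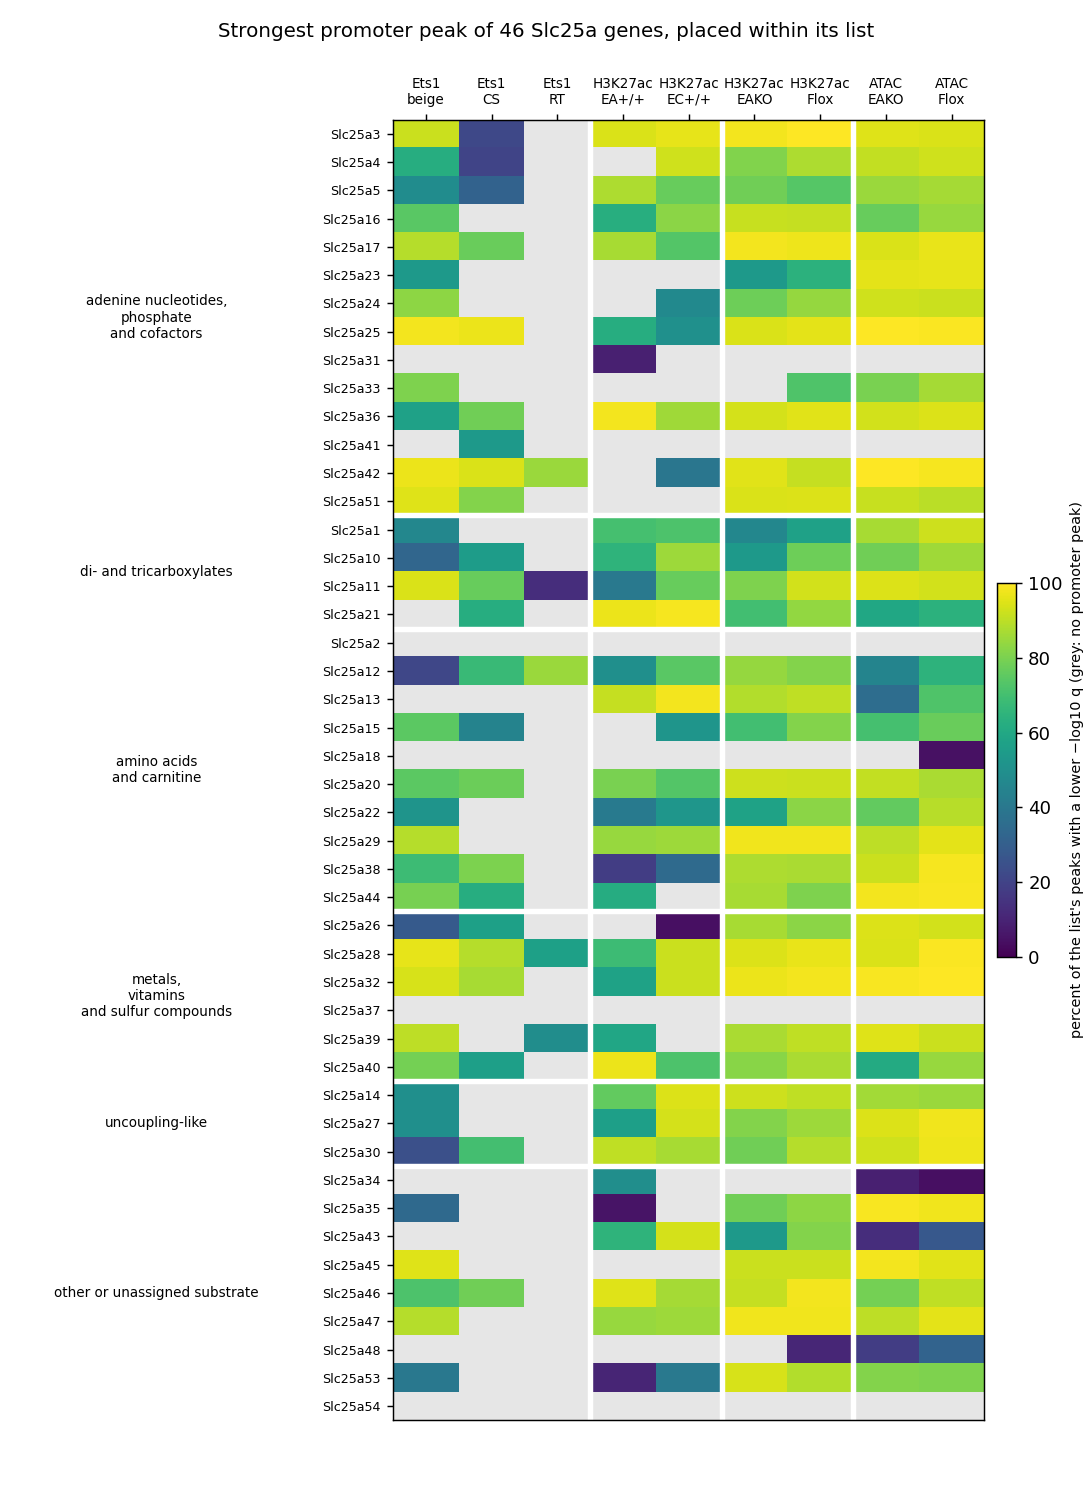
Place of the strongest promoter peak of 46 members (rows, grouped by substrate) in each library (columns), as percent of the list's peaks with a lower −log10 q; grey means no promoter peak. Slc25a2, Slc25a37 and Slc25a54 are grey throughout, and the Ets1 RT column is coloured for 5 genes.

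Ets1 under cold stress against room temperature asks where the factor sits in adipocytes of cold-exposed mice. A promoter peak in CS alone was found at 19 members (40.4%, Wilson 95% interval 27.6 to 54.7%, all genes 29.1%), in both at 4 (all genes 3.63%), in RT alone at 2 (all genes 0.428%) and in neither at 22 (all genes 66.9%). The CS list held more peaks than the RT list, and how far that sets these counts was not tested. With the 4056 strongest peaks of each list, 8 members had a peak in CS alone (all genes 12.8%) and 3 in RT alone (all genes 0.916%).

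Among adenine nucleotide, phosphate and cofactor carriers, 9 of 14 had a CS peak (all genes 32.7%) and 1 of 14 an RT peak (all genes 4.06%). The same shares of all genes apply to the groups that follow. Slc25a25, an ATP-Mg/phosphate carrier, had the strongest member peak in CS, with a −log10 q of 16.8 and rank 449, and no RT peak. Its summit lay at −806 bp from the gene's nearest TSS, in a promoter shared with Naif1 on the opposite strand. Slc25a42, which carries coenzyme A, was the one gene of this group with a peak in both, at 12.6 in CS and 6.55 in RT, placed at 94.2 and 85.1. The adenine nucleotide translocases Slc25a4 and Slc25a5 and the phosphate carrier Slc25a3 had the 3 lowest CS places, 20.4, 31.4 and 21.8 (−log10 q of 2.19, 2.87 and 2.32), and no RT peak. The 3 genes that move ADP, ATP and phosphate for ATP synthase thus had weak CS peaks. Slc25a36 and Slc25a17 had CS peaks of 6.35 and 6.16, placed at 78.1 and 77.0, and none in RT. Slc25a41, an ATP-Mg/phosphate carrier, had a CS peak of 3.68 at 768 bp past its TSS and a promoter peak in no other list.

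The oxoglutarate carrier Slc25a11 had a CS peak of 6.15 and an RT peak of 2.07 elsewhere, placed at 76.9 in CS and 13.1 in RT. Both summits lay inside the gene, at 70646924 and 70646032, its 5′ end being at 70647479. They stood −25 and −122 bp from the nearest TSS. The RT peak lay more than 1 kb from the 5′ end and outside any Flox ATAC peak. Slc25a10, the dicarboxylate carrier, and Slc25a21, the oxodicarboxylate carrier, had CS peaks of 3.86 and 4.51 and none in RT. Slc25a1, which exports citrate, had no Ets1 promoter peak in either. The group therefore had 3 of 4 members in CS and 1 of 4 in RT.

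Of the amino acid and carnitine carriers, 5 of 10 had a CS peak. They were Slc25a12, Slc25a15 (ornithine), Slc25a20 (carnitine and acylcarnitines, 6.27), Slc25a38 (glycine, 6.67) and Slc25a44 (branched-chain amino acids, 4.50). Slc25a12 was the single one with an RT peak, at 6.57 in RT against 4.96 in CS, placed at 85.1 and 67.8. That site, chr2:71282069-71282476 in CS, lies inside the gene near a downstream TSS and not at its 5′ end, which is at 71367749. It had H3K27ac peaks in EA+/+ (3.26), EC+/+ (5.03) and Flox (5.00), none in EAKO or ATAC, and the repetitive sequence printed above. Its difference in place, CS minus RT, was −17.2 points, lower than for 95% of the 796 genes with a peak in both lists (background 5.03%).

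In the metal, vitamin and sulfur group, Slc25a28 had peaks of 9.23 in CS and 3.84 in RT, placed at 88.8 and 57.03. Slc25a39, the mitochondrial glutathione carrier, had 3.27 in RT and none in CS, so that it was among the members with an RT peak alone. Slc25a32 (folate and flavin, 8.41), Slc25a40 (3.96) and Slc25a26 (S-adenosylmethionine, 4.02) had CS peaks alone. Of the uncoupling-like carriers Slc25a14, Slc25a27 and Slc25a30, Slc25a30 had a CS peak (5.26), and none had one in RT. Of the 9 genes with other or unassigned substrates, 1 had a CS peak, Slc25a46, a protein of the outer membrane linked to mitochondrial fusion and fission (6.35).

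**Figure D3:**
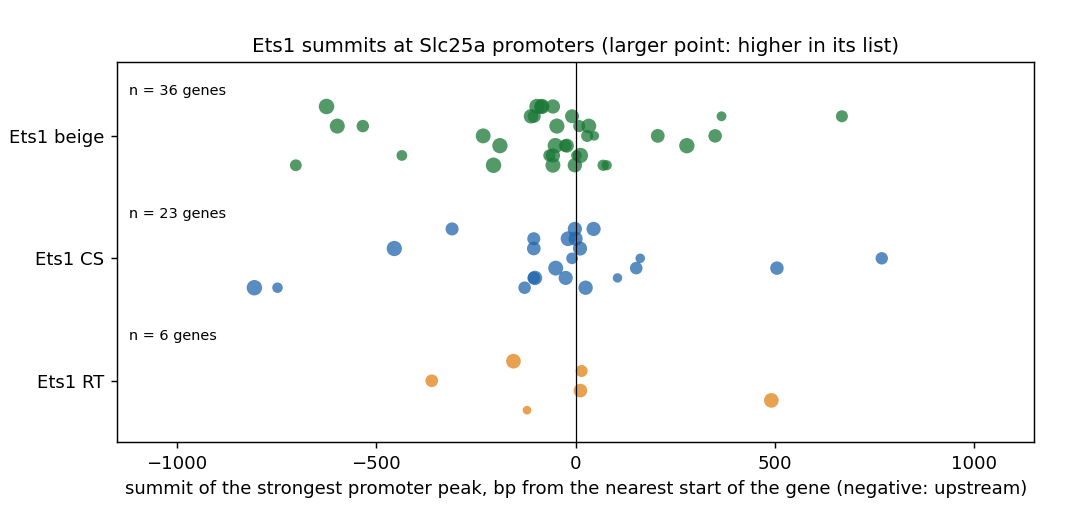
Position of the summit of the strongest Ets1 promoter peak (x axis, bp from the gene's nearest TSS, negative upstream) for each member with a peak, in beige, CS and RT libraries; larger points stand higher in their list. The median distance was 81.5 bp in beige cells, 105 bp in CS and 139 bp in RT.

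Most of these sites were open chromatin in vivo. Of 44 member promoter peaks of beige cells, 43 overlapped a Flox ATAC peak (all promoter peaks 95.6%), of 26 in CS 21 did (92.4%), and of 6 in RT 4 did (87.9%). The strongest peak came within 1 kb of the gene's 5′ end in 36 of 36 members in beige cells, 21 of 23 in CS and 4 of 6 in RT. The exceptions were Slc25a12 and Slc25a21 in CS and Slc25a11 and Slc25a12 in RT. The same share was not computed over all genes, so whether these counts are particular to carriers is not known.

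Ets1 in cultured beige cells against adipocytes of cold-exposed mice compares 2 states in which thermogenic fat cells form. Material and age differ between them as well, and these cannot be told apart. A promoter peak in beige cells alone stood at 15 members (31.9% of 47, all genes 17.1%), in CS alone at 2 (all genes 3.39%), in both at 21 (all genes 29.3%) and in neither at 9 (all genes 50.2%). With the 14858 strongest peaks of each list, the counts were 10 in beige cells alone (all genes 9.84%) and 7 in CS alone (all genes 7.49%).

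Of the adenine nucleotide, phosphate and cofactor carriers, 12 of 14 had a beige peak (all genes 46.4%). Slc25a25 led again, at 83.4 with rank 591, followed by Slc25a42 at 64.1 with rank 939. Slc25a51, which carries NAD into mitochondria, stood at 48.3 in beige cells and 6.90 in CS, placed at 94.98 and 81.3. Slc25a3 stood at 35.8 in beige cells and 2.32 in CS, placed at 92.2 and 21.8. This difference was above that of 95% of the 6434 genes with a peak in both lists (background 5.0%), and Slc25a3 was the single member there. Slc25a4 differed in the same direction, placed at 62.5 in beige cells and 20.4 in CS, and Slc25a5 less, at 48.8 and 31.4. Slc25a16, Slc25a23, Slc25a24 and the pyrimidine nucleotide carrier Slc25a33 had beige peaks of 13.8, 7.44, 19.9 and 17.7 and none in CS.

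Slc25a11 stood at 44.5 in beige cells and 6.15 in CS, placed at 94.4 and 76.9, and Slc25a1 had a beige peak of 6.06 alone. Slc25a21 was 1 of the 2 members with CS alone, the other being Slc25a41. Slc25a12 and Slc25a30 were the members whose place was lower in beige cells, beyond 95% of genes (background 5.0%). Slc25a12 was placed at 21.4 in beige cells and 67.8 in CS, and Slc25a30 at 24.2 and 70.2. For Slc25a12 the 2 peaks do not overlap, since the beige peak of 3.05 lay at the 5′ end, 85.4 kb from the CS summit. Of the 21 genes with peaks in both, the strongest peaks overlapped in the other 20 (all genes 90.7%).

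Among amino acid carriers, Slc25a29, which carries basic amino acids, had a beige peak of 27.8 and none in CS. Slc25a47 starts on the opposite strand within 1 kb of Slc25a29, so both have the same strongest promoter peak in every list where they have one. They count as 2 genes in the numbers given here but are 1 site. Slc25a20 was placed at 74.98 in beige cells and 77.7 in CS, Slc25a44 at 79.4 and 62.2, and the glutamate carrier Slc25a22 had a beige peak of 6.90 and no CS peak. Slc25a32 (43.0) and Slc25a28 (55.7) were among the 10 strongest in beige cells, and Slc25a39 (30.6) was also. All 3 uncoupling-like carriers had a beige peak, the strengths being 6.70, 6.70 and 3.47 at Slc25a14, Slc25a27 and Slc25a30. Slc25a45 was the strongest of the 9 genes with other or unassigned substrates, at 49.3 with rank 1463 and none in CS.

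H3K27ac in EA+/+ against EC+/+ asks what added Ets1 in adipocytes does to promoter acetylation. Peaks in EA+/+ alone stood at 6 members (12.8% of 47, all genes 7.33%), in EC+/+ alone at 5 (10.6%, all genes 8.89%), in both at 26 (all genes 43.1%) and in neither at 10 (all genes 40.7%). The counts in the 2 directions were close to each other, and near the shares of all genes.

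The genes with a peak in EA+/+ alone included Slc25a31, the testis translocase (1.92), Slc25a34 (3.26), Slc25a35 (1.76), Slc25a39 (3.62) and Slc25a44 (3.80). The 5 with a peak in EC+/+ alone were Slc25a4 (10.3), Slc25a15 (3.76), Slc25a24 (3.48), Slc25a26 (1.86) and Slc25a42 (3.23). Of these named genes, all but Slc25a4 had a −log10 q of 3.80 or less. Slc25a4, the translocase of heart and muscle, stood out by its place of 92.6 in EC+/+ and no peak within 1 kb of a TSS in EA+/+. It had H3K27ac peaks in EAKO (16.6) and Flox (24.3) and ATAC peaks of 68.9 in EAKO and 105 in Flox.

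Of the 26 members with both, 8 were placed higher in EA+/+ and 18 lower. Their median difference in place, EA+/+ minus EC+/+, was −4.52 points, against −0.50 over 9450 genes, of which 47.6% were placed higher. Slc25a40 was placed at 97.0 in EA+/+ and 72.1 in EC+/+, and Slc25a17, a coenzyme A and NAD carrier of peroxisomes, at 87.1 and 73.2. Slc25a27 was placed at 56.6 in EA+/+ and 93.4 in EC+/+, Slc25a11 at 40.4 and 76.8, and Slc25a32 at 57.5 and 91.8. None of the 26 lay beyond the central 90% of genes (background 5.01% on each side), whose limits were −46.2 and 42.7 points. The strongest peaks overlapped for 22 of the 26 (all genes 89.1%), the exceptions being Slc25a5, Slc25a12, Slc25a25 and Slc25a38.

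H3K27ac in EAKO against Flox asks what loss of Ets1 in adipocytes does. Presence of a promoter peak differed at 2 members. A peak in EAKO alone stood at 0 of 47 members, which allows a share of up to 7.56% by the Wilson 95% interval (all genes 1.75%), in Flox alone at 2 (all genes 5.18%), in both at 38 (all genes 58.7%) and in neither at 7 (all genes 34.4%). The 2 in Flox alone were Slc25a33, with a peak of 11.4 placed at 72.7, and Slc25a48, with one of 2.68 placed at 10.8. Slc25a33 also had ATAC peaks of 41.0 in EAKO and 75.4 in Flox, so its promoter had an ATAC peak in both.

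The median difference in place, EAKO minus Flox, was −1.68 points over the 38 members and −1.17 over 12879 genes. Lower in EAKO were 25 of the 38, and 13 were higher (37.6% of genes higher). Slc25a43 was placed at 54.2 in EAKO and 81.5 in Flox, Slc25a22 at 57.7 and 82.5, and Slc25a10 at 54.1 and 78.1. Slc25a44 was placed at 86.7 in EAKO and 80.8 in Flox and Slc25a53 at 94.1 and 88.5. None lay beyond the central 90% of genes, −27.7 to 10.1 points (background 4.99% above and 5.0% below). Slc25a3 had the best place of the family in both, with 68.7 in EAKO and 124 in Flox, ranks 1179 and 235.

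**Figure D4:**
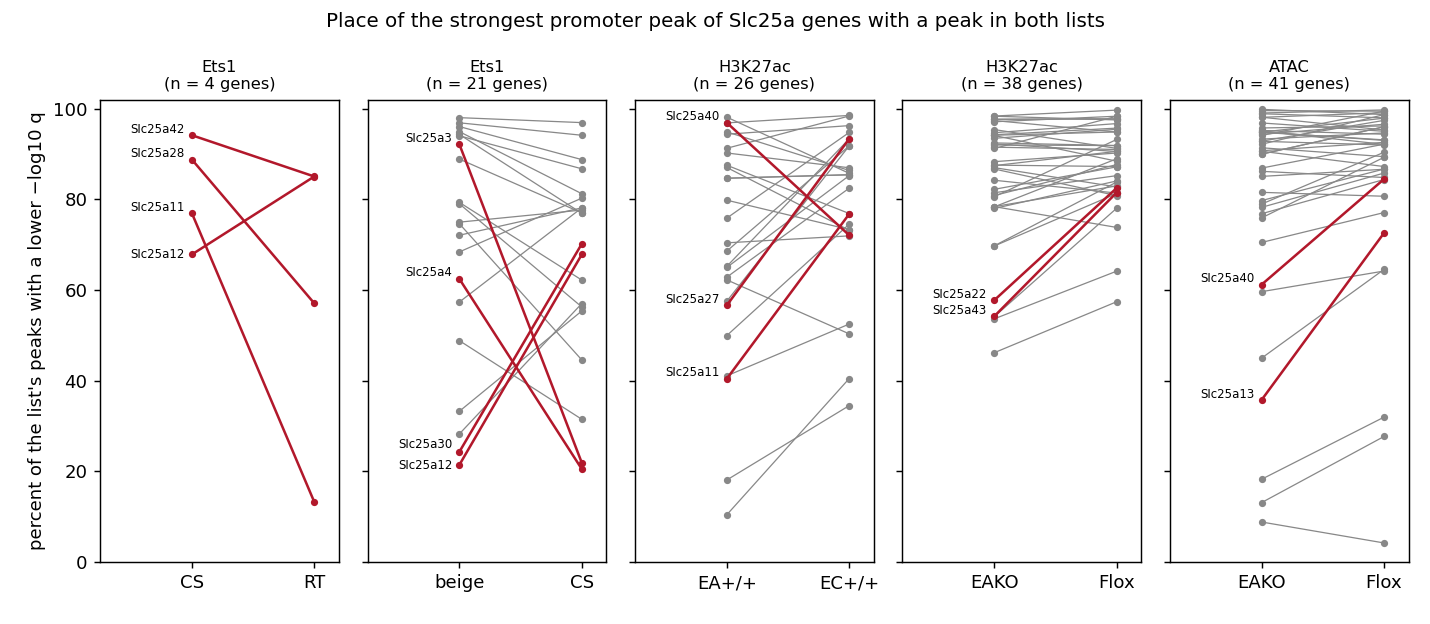
Place of the strongest promoter peak (y axis, percent of the list's peaks with a lower −log10 q) in the 2 libraries of each comparison, 1 line per member with a peak in both; red lines are genes named in the text. Lines are flattest in the EAKO and Flox panels.

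ATAC in EAKO against Flox differed in presence at 1 member. A peak in EAKO alone stood at 0 of 47 (up to 7.56%, all genes 0.784%), in Flox alone at 1 (all genes 2.54%), in both at 41 (all genes 65.2%) and in neither at 5 (all genes 31.5%). The gene in Flox alone was Slc25a18, a glutamate carrier known from brain, with a peak of 3.35 placed at 4.44 and no promoter peak in any other list. The strongest peaks overlapped for 41 of 41 (all genes 99.6%). Their median difference in place was −1.85 points for members and −1.20 for all genes, with 15 higher in EAKO and 26 lower (37.0% of genes higher).

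Slc25a13, the aspartate-glutamate carrier of liver, had the one difference beyond the central 90% of genes, −24.0 to 6.81 points (background 4.99% below). It was placed at 35.7 in EAKO and 72.6 in Flox, with −log10 q of 10.3 and 41.7. Its H3K27ac peak was placed at 88.3 in EAKO and 90.2 in Flox, and it had no Ets1 promoter peak in any list. Slc25a40 was placed at 61.2 in EAKO and 84.5 in Flox, and Slc25a12 at 44.9 and 64.5. Slc25a42 had the best place of the family in EAKO at rank 82 and Slc25a32 in Flox at rank 200. Slc25a20 was placed slightly higher in EAKO, at 90.6 against 87.3 in Flox.

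Peaks were then counted in each gene body plus 20 kb on each side. In beige cells 107 Ets1 peaks lay in these regions, of which 74 (69.2%, Wilson 95% interval 59.9 to 77.1%) overlapped no CS peak, against 78.7% of the beige list. In CS 47 of 55 (85.5%, 73.8 to 92.4%) overlapped no RT peak, against 88.0% of the CS list. In the other directions, 21 of 55 CS peaks overlapped no beige peak (38.2%, list 56.0%) and 6 of 14 RT peaks no CS peak (42.9%, list 55.9%). For H3K27ac, 78 of 133 EA+/+ peaks overlapped no EC+/+ peak (58.6%, 50.1 to 66.7%, list 60.7%), and 63 of 120 EC+/+ peaks no EA+/+ peak (52.5%, list 54.9%). In EAKO 35 of 184 overlapped no Flox peak (19.0%, 14.0 to 25.3%, list 26.0%), and in Flox 57 of 203 no EAKO peak (28.1%, list 35.9%). For ATAC these were 19 of 221 in EAKO (8.60%, 5.57 to 13.0%, list 8.98%) and 29 of 224 in Flox (12.9%, list 16.6%). The unshared share was below that of the whole list in each of these lists, and the list's share lay above the interval for beige cells, for CS against beige cells, and for EAKO and Flox H3K27ac. Member regions were rich in promoters, since 33 of the 107 beige peaks lay outside promoters, against 19485 of 30553 in the list. Outside promoters alone, the unshared share was 24 of 82 for EAKO H3K27ac (29.3%, list 30.7%) and 38 of 95 for Flox H3K27ac (40.0%, list 40.7%). In every other case it was above the list's share outside promoters. It was 77.4% in EA+/+ (list 75.6%), 71.4% in EC+/+ (69.2%), 14.8% in EAKO ATAC (10.6%) and 19.7% in Flox ATAC (18.5%). For Ets1 it was 9 of 10 for CS against RT (list 86.1%) and 2 of 3 for RT (65.9%). Between beige cells and CS it was 33 of 33 for beige cells (list 94.6%) and 10 of 10 for CS (86.6%).

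Outside all promoters, 33 beige Ets1 peaks and 10 CS peaks lay in member regions, and none of the 33 overlapped a CS peak (94.6% of all beige peaks outside promoters overlapped none). Of the 33, 25 lay in Flox ATAC peaks (all such beige peaks 79.7%), and of the 10 in CS, 1 did (19.3%). The strongest beige site, chr2:32458395-32458632, lay 7.07 kb from the nearest TSS of Slc25a25 at 37.6. The same site had H3K27ac peaks of 6.21 in EAKO, placed at 48.3, and 30.2 in Flox, placed at 90.6, and ATAC peaks of 60.7 in EAKO and 106 in Flox, placed at 88.4 and 92.8. It was thus lower in its list in EAKO for both assays, but it was picked after its values were seen. Among genes with a promoter peak in both lists, 37.6% were placed higher in EAKO for H3K27ac and 37.0% for ATAC. Such a share was not computed for sites outside promoters. A site 14.4 kb from Slc25a4, chr8:46225568-46225866, had a beige Ets1 peak of 33.2, H3K27ac peaks of 22.8 in EAKO and 20.4 in Flox, and ATAC peaks of 77.4 and 119. It was placed alike in EAKO and Flox, at 87.0 and 84.9 for H3K27ac and 92.7 and 94.6 for ATAC.

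The RT list had 3 such peaks in member regions. The strongest, chr3:109084479-109084762 in Slc25a54, had a peak in CS (6.35, placed at 78.1) and in RT (17.9, rank 160, placed at 96.1). The same place had H3K27ac peaks of 10.3 in EA+/+, 7.03 in EC+/+, 11.8 in EAKO and 8.58 in Flox, but no ATAC peak and no beige Ets1 peak. Slc25a54 had no promoter peak of its own in any list, and its region also held 2 beige Ets1 peaks, which lay in promoters of other genes.

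The genes with most H3K27ac peaks outside promoters, summed over 4 lists, were Slc25a26 (24 peaks), Slc25a21, Slc25a25 and Slc25a47 (17 each). Length played into this, since the region of Slc25a21 spans 525 kb and that of Slc25a47 60.8 kb. Around Slc25a47 there were 4 such peaks in EAKO and 9 in Flox, and around Slc25a26 5 and 9. For ATAC, Slc25a21 had 6 peaks in EAKO and 10 in Flox, and Slc25a33 6 and 4. Over all members these peaks numbered 82 in EAKO and 95 in Flox for H3K27ac and 122 and 127 for ATAC, each peak counted once. The whole lists also held fewer peaks outside promoters in EAKO, 56827 against 67645 in Flox for H3K27ac and 64043 against 69959 for ATAC.

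**Figure D5:**
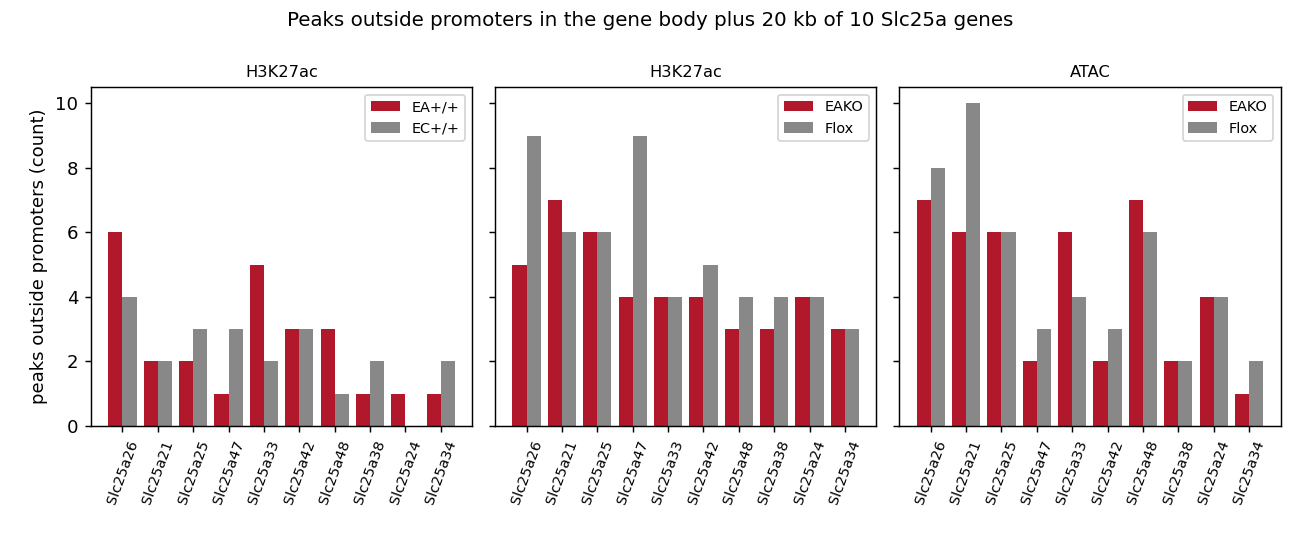
Number of peaks outside promoters (y axis) in the gene body plus 20 kb for the 10 members with most H3K27ac peaks of this kind (x axis), in EA+/+ and EC+/+ (left) and EAKO and Flox (middle H3K27ac, right ATAC). Slc25a26 and Slc25a47 have the widest gap for H3K27ac (5 and 4 in EAKO, 9 and 9 in Flox), Slc25a21 for ATAC (6 in EAKO, 10 in Flox).

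Of 5 carrier genes under other symbols, Mtch1 and Mtch2, outer membrane proteins, had promoter peaks in every list but RT. Ucp1 had one in H3K27ac of EAKO (3.82, placed at 22.8) and Flox (3.43, placed at 21.9), and no Ets1 promoter peak in any list. Ucp2 had an Ets1 peak of 2.92 in beige cells and none in CS or RT, and Ucp3 an H3K27ac peak in EC+/+ alone (2.56). Among 18 other mitochondrial transporters, such as the pyruvate carrier (Mpc1, Mpc2) and the porins (Vdac1 to Vdac3), Ets1 promoter peaks stood at 17 in beige cells, 14 in CS and 4 in RT (all genes 46.4%, 32.7% and 4.06%). All 18 had promoter peaks in each H3K27ac and ATAC list (all genes 50.4 to 67.7%).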

How the data were processed

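The authors trimmed reads with trimmomatic, mapped them to mm10 with BWA and ran MACS2 on each library, with 0.05 as the q-value limit. SAMtools and deepTools also appear in the submitters' processing notes. Whether MACS2 had a control library, and whether high-signal regions were masked, is not given in the sources used here. Each deposited list gives position, a score (10 times the −log10 q, as a whole number), the fold enrichment (a linear ratio), −log10 of p and of q, and the summit offset. The −log10 q values are the authors' and depend on depth, so they ranked peaks within a list and were never divided between lists. The study states a read total for each library, near-equal in CS and RT, higher in beige cells and highest for ATAC. Reads were not analysed here, and the lists themselves hold no depth.

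Promoters were 1 kb on each side of 93513 TSS of 21938 protein-coding genes (GENCODE M21, GRCm38). Peaks that overlapped by 1 bp or more counted as shared. Of several promoter peaks, the one with the highest −log10 q was taken. Sequence came from the RefSeq GRCm38 assembly, in which every peak ends inside its chromosome. Python 3.11.15 with numpy 2.4.6 and pandas 2.3.3 was used. The overlap code was tested on simulated peaks. Intervals of shares are Wilson 95% intervals and hold counting error alone.

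The members and the gene lists were chosen with earlier results of these data known. Genes named are those with an Ets1 peak in RT, those with a promoter peak in 1 library of a pair alone, the 10 strongest in CS and in beige cells, those with no promoter peak, a set of well-known carriers, and those with most peaks outside promoters. Sites shown outside promoters, and genes singled out for a difference in place, were chosen after their values were seen. A further member counts in every total but is not reported by name here. With 1 library per group no test was run. Alternatives were promoters of 500 bp and 3 kb, only the 5′ end of each gene, a q-value under 0.001, equal numbers of best peaks, an overlap of at least 50% of both peaks, and a flank of 5 kb.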

Additional observations from a re-analysis of the deposited data

How the results depend on the processing

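No paired analysis was possible because each group holds 1 library, and for the same reason no replicate was left out. Peak counts depend on depth. The read totals that the study states are near each other for CS and RT and higher for beige cells, while the 3 Ets1 lists differ in length by several times, and the cause was not tested. Promoters that carriers share with neighbours, as Slc25a29 and Slc25a47 do, count for each gene. A TSS of another gene on the opposite strand lay within 1 kb for 10 members (all genes 12.3%). They were Slc25a29, Slc25a47, Slc25a25 (Naif1), Slc25a11 (Rnf167), Slc25a23 (Crb3), Slc25a27 (Cyp39a1), Slc25a32 (Dcaf13), Slc25a40 (Dbf4), Slc25a46 (B930094E09Rik) and Slc25a53 (Zcchc18). Whether a peak at such a promoter belongs to the carrier or to its neighbour was not tested.

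Each promoter count was set against 5 alternatives and each regional share against 4. Of 70 values, 52 stayed within 1.5 times the count or inside the interval of the share, and 18 did not. With equal numbers of best peaks, CS alone fell to 8 members against RT (all genes 12.8%), CS alone against beige cells came to 7 (all genes 7.49%), Flox alone came to 1 for H3K27ac (all genes 4.13%) and to 0 for ATAC (all genes 2.09%), and EAKO alone came to 1 for ATAC (Slc25a34, all genes 1.08%). With a q-value under 0.001, EC+/+ alone came to 8 (all genes 10.9%) and Flox alone for H3K27ac to 1 (Slc25a33, all genes 4.47%). With 500 bp promoters, CS alone against RT came to 17 (all genes 27.9%). Slc25a25, the strongest in CS, and Slc25a5 then had no CS promoter peak. Both then counted in beige cells alone against CS, which came to 16 (all genes 16.5%). With 3 kb promoters, Flox alone for H3K27ac came to 1 (Slc25a48, all genes 5.32%). Flox alone for ATAC stayed at 1 with 3 kb promoters, but the gene was then Slc25a41 and no longer Slc25a18 (all genes 2.19%), and it came to 2 with 500 bp promoters (all genes 3.04%). With only the 5′ end of each gene, CS alone against beige cells came to 1 (Slc25a41, all genes 3.08%) and Flox alone for ATAC to 2 (Slc25a18, Slc25a43, all genes 3.01%). When at least 50% of both peaks had to overlap, the unshared share in member regions was 92.7% for CS against RT, 78.5% for beige against CS, 69.2% for EA+/+, 34.8% for EAKO H3K27ac and 17.2% for EAKO ATAC. With equal numbers of peaks it was 55.6% for beige against CS and 13.1% for EAKO ATAC. A stricter overlap counts fewer peaks as shared by construction; the cause of the other changes was not tested.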
